A study of Mus musculus with 44 samples.

Results

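The genes described here are 40 mouse genes for endoplasmic reticulum (ER) chaperones and the unfolded protein response, taken as a list by symbol from the kidney RNA series and ordered by the function of their products. They are 40 of 24733 genes with any value, and 39 of them were among the 12874 genes tested, whose level averaged 1 TPM or more (TPM is the share of transcripts, scaled to the same sum in each library). The remaining gene, Derl3, had a mean of 0.851 TPM and a range of 0.295 to 1.48 TPM. The question was which daily rhythms of these genes are still found in mice without the clock activator BMAL1.

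Polyadenylated RNA was measured in 24 kidney libraries from 129SV mice aged 8 to 12 weeks, all kept on night-restricted feeding. There were 12 wild-type (WT) libraries and 12 from animals labelled KO, which the series' text calls Bmal-/-, with 2 libraries, A and B, at each of ZT0, 4, 8, 12, 16 and 20 (zeitgeber time, in hours). The sources used here do not give the deleted part of the gene, the animals' sex, or whether A and B are separate mice, so the tests measure the spread between these libraries. Feeding was confined to the night in every library, so an effect of the hour and an effect of the meal cannot be told apart. The series also holds 20 libraries of chromatin contacts, not analysed here.

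Secreted and membrane proteins are translocated into the ER, where they fold with the help of chaperones, receive glycans and form disulfide bonds. When unfolded proteins accumulate, 3 membrane sensors, IRE1α (gene Ern1), ATF6 and PERK (gene Eif2ak3), start the unfolded protein response. IRE1α splices the mRNA of Xbp1, ATF6 is cut into a transcription factor, and PERK slows translation. XBP1 and ATF6 raise the genes for chaperones and for ER-associated degradation through promoter sequences that include the ER stress response element (ERSE).

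Library values were checked first. Arntl, the gene for BMAL1, read 0.295 to 12.9 TPM in WT and 4.19 to 6.28 TPM in KO; a value summed over transcripts does not isolate a deleted part, so it checks no label. Nr1d1, a direct target of the clock activators, read 1.23 to 3.46 TPM in 11 KO libraries and 23.8 TPM in library A labelled KO at ZT4, where the WT libraries of that time read 22.0 and 33.0 TPM. Cry1 read 11.5 to 17.8 TPM in the same 11 KO libraries, 1.03 TPM in that one library, and 1.20 and 0.845 TPM in WT at ZT4. The library labelled KO ZT4 A thus has clock gene levels in the WT range, and the main counts are given with and without it. Where no second value is printed, values that draw on KO libraries include it. All kidney segment marker lists were detected in full, while 0 of 3 adrenal cortex markers reached 1 TPM. Of the hepatocyte markers 2 of 3 did, with a summed level of 19.0 to 42.4 TPM in WT and 17.7 to 49.0 TPM in KO. Of the pancreas markers 1 of 3 did, with a sum of 52.6 to 76.5 TPM in WT and 58.1 to 88.5 TPM in KO. Plasma cells, which carry much ER, were followed by 4 markers, of which Jchain and Mzb1 reached 1 TPM and Pou2af1 and Tnfrsf17 did not; their summed level was 2.02 to 65.7 TPM in WT, highest in WT ZT4 B, and 1.74 to 18.7 TPM in KO.

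The promoter sequences are shown because the ERSE is the element that the response acts on. It was also found before the RefSeq start of 7 of the 13 genes whose rhythm passed in both genotypes. Another of these 13, Hyou1, had no promoter entry and could not be searched. RefSeq promoters (GRCm38.p6, 250 bases before to 50 after each start) were matched for 33 of the 40 genes. Hspa13, Hyou1, Manf, Derl1, Atf6, Sec61a1 and Sec11c had no entry. Promoters were searched on both strands for the ERSE, which is CCAAT, 9 bases of any kind and CCACG. It was present in 9 of the 33 matched genes and in 37 of all 27025 genes with a promoter entry (0.137%). The matches are given below 5′ to 3′ in the orientation of the motif, with the fixed bases in capitals.
Hspa5 (chr2:34772025-34772043): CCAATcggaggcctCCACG
Calr (chr8:84847075-84847093): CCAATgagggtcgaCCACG
Canx (chr11:50325800-50325818): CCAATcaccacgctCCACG
Hsp90b1, far site (chr10:86705638-86705656): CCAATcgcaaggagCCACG
Hsp90b1, near site (chr10:86705533-86705551): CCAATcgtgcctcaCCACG
Pdia6 (chr12:17266491-17266509): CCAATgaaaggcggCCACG
Creld2 (chr15:88819520-88819538): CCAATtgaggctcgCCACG
Dnajc3 (chr14:118937827-118937845): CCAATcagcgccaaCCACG
Syvn1 (chr19:6046532-6046550): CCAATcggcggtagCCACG
Derl3 (chr10:75893242-75893260): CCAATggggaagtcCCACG

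A compact second form, the ERSE-II (ATTGG, 1 base, CCACG), was found in Dnajb11 and Herpud1, and in 0.0444% of all genes with a promoter entry.
Dnajb11 (chr16:22857852-22857862): ATTGGcCCACG
Herpud1 (chr8:94386377-94386387): ATTGGgCCACG

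The Herpud1 match lies 52 to 42 bases before the RefSeq start and the Dnajb11 match 8 to 18 bases after it. The E-box CACGTG, the element that BMAL1 and its partner bind, was present in 4 of the 33 genes (Calr, Dnajb9, Derl3 and Ssr1). Of all genes with a promoter entry, 8.09% had it. The core TGACGTGG, known from XBP1 binding, and the cyclic AMP element TGACGTCA were in none of the 33 genes. They were in 0.714% and 2.03% of all genes with a promoter entry. A match is a description of letters and does not show binding.

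The stretches before the start of Calr, Hsp90b1 and Pdia6 are printed along the gene's strand, without any base that GENCODE M21 annotates as an exon, to show where the ERSE lies. Capitals mark the ERSE, which in Calr and at the near site of Hsp90b1 lies on the opposite strand and so reads CGTGG first.
Calr (chr8:84846935-84847181, minus strand): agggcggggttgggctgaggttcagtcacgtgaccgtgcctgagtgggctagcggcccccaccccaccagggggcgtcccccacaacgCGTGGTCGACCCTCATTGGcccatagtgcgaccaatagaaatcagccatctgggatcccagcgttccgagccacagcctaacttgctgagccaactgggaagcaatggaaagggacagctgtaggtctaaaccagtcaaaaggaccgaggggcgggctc
Hsp90b1 (chr10:86705510-86705694, minus strand): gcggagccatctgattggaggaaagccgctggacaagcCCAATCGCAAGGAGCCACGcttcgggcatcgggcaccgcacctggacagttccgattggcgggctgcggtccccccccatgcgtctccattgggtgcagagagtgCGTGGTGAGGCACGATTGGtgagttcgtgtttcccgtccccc
Pdia6 (chr12:17266339-17266544, plus strand): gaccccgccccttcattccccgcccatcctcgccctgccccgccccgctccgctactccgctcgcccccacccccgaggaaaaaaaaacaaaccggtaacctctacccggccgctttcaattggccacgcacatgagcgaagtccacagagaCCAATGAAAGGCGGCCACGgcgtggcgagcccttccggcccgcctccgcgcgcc

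Of the 39 tested genes, 20 had a 24-hour rhythm in WT and 14 in KO at a Benjamini-Hochberg adjusted p under 0.05 (limma, log2(TPM + 0.1), both genotypes in 1 model with a shared spread). Over all genes tested, 13.7% passed in WT and 3.64% in KO, so the members' shares of 51.3% and 35.9% lie above the background in both. In both genotypes 13 members passed, against 1.66% of all genes. These were the chaperones Calr, Canx, Hspa5, Hsp90b1 and Hyou1, the disulfide isomerases Pdia3, Pdia4 and Pdia6, the ER stress genes Creld2 and Sdf2l1, the cochaperones Dnajb11 and Dnajc3, and the translocon subunit Sec61b. Without library KO ZT4 A, 21 members passed in WT, 16 in KO and 13 in both, where 2140, 481 and 246 of all 12872 genes did. In bulk kidney, fewer cells of a type and less RNA per cell cannot be told apart.

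The test of the genotype difference in rhythm passed for 0 of the 39 members and for 0.629% of all genes. At an unadjusted p under 0.05 (limma), 4 members differed, Edem1, Eif2ak3, Sec11c and Sec61b, against 13.7% of all genes, and with time fitted as 6 separate levels 0 members passed after adjustment. Without library KO ZT4 A, 0 members passed the test of the difference as well. The members that passed in WT and not in KO are therefore not shown to differ between genotypes.

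The main KO counts rest on a spread shared with WT. Over all genes, the median absolute gap between libraries A and B was 0.105 to 0.124 log2 units in WT. In KO it was 0.236 at ZT4 and 0.132 to 0.196 at the other times. The KO rhythm was also tested on the 12 KO libraries alone, with no spread borrowed from WT. Of 12874 genes, 12 passed (0.0932%), and 5 of these 12 were members: Calr, Sdf2l1, Pdia6, Pdia3 and Dnajb11. Without library KO ZT4 A, 11 genes passed and 5 of them were members. The same 5 members passed in KO in every one of the 24 fits that left out 1 library and in all 10 other settings. Canx, Hsp90b1, Hyou1 and Dnajc3 also passed in KO in all 24.

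Single libraries decided some of the other calls. Hspa5 and Pdia4 lost the KO call without KO ZT8 B (limma adjusted p 0.0541 and 0.0571). Sec61b lost it without KO ZT0 A, KO ZT0 B or KO ZT12 B (limma adjusted p up to 0.088), and Creld2 without KO ZT4 B, KO ZT8 B, KO ZT16 A, KO ZT16 B or KO ZT20 B (up to 0.0801). A KO call was gained by P4hb without KO ZT0 A or KO ZT8 A, by Edem1 and Eif2ak3 without KO ZT0 A, by Ssr1 without KO ZT4 A or KO ZT12 A, by Ssr3 without KO ZT4 A, by Herpud1 without KO ZT16 A and by Manf without WT ZT16 A or KO ZT20 A. In WT, Hspa13 lost its call in most of the 24 fits (limma adjusted p up to 0.123). Sec61a1 gained one without WT ZT4 B, WT ZT20 A, KO ZT4 A, KO ZT12 A or KO ZT12 B, and Sel1l without WT ZT20 B or KO ZT20 A.

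**Figure D1:**
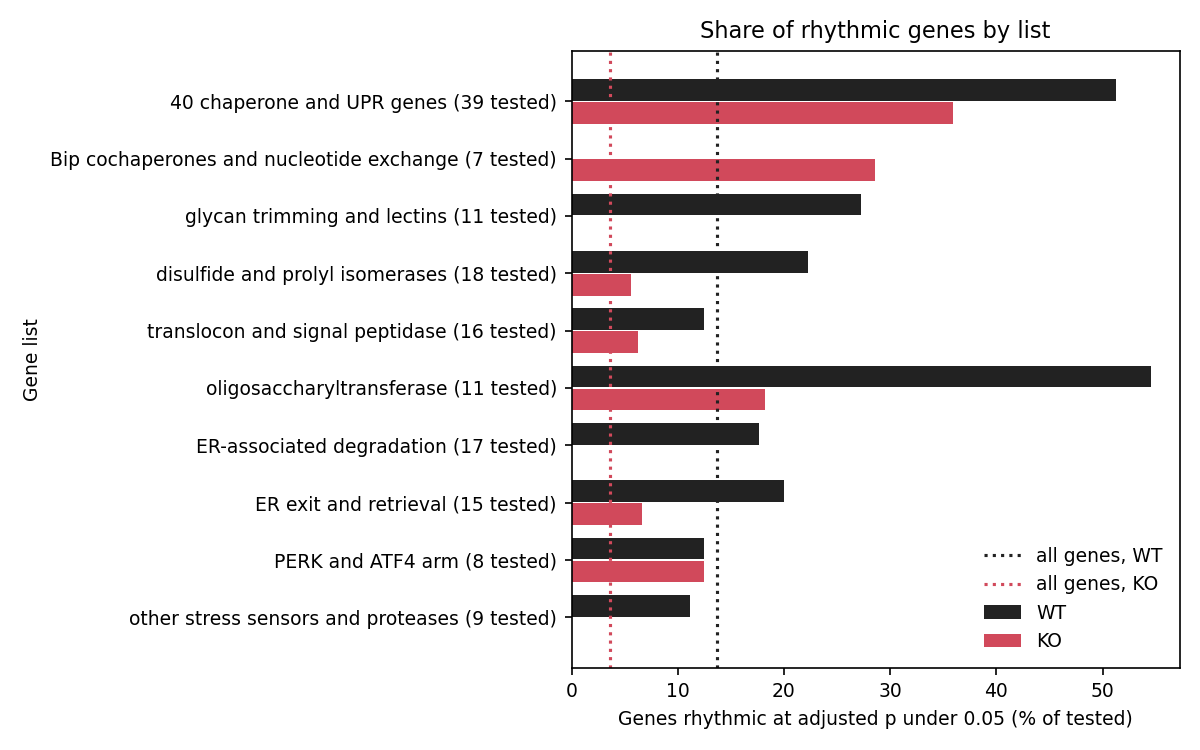
Share of tested genes rhythmic in WT (black) and KO (red) for the 40 genes and for 9 lists of other ER genes; dotted lines give the share over all genes, 13.7% in WT and 3.64% in KO. The 40 genes reach 51.3% in WT and 35.9% in KO, and the numbers of tested genes stand beside each list.

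The 2 lectin chaperones of the calnexin cycle, which hold newly made glycoproteins until they fold, were rhythmic in both genotypes. Calr (calreticulin, the soluble one; ENSMUSG00000003814, chr8:84841850-84846934, minus strand) had the smallest KO p-value of the 40 genes. Calr read 446 and 418 TPM at ZT0, 353 and 309 at ZT4, 268 and 252 at ZT8, 220.2 and 215 at ZT12, 315 and 322 at ZT16 and 398 and 405 at ZT20 in WT. For Calr, the KO libraries read 415 and 394 TPM at ZT0, 342 and 326 at ZT4, 235 and 229 at ZT8, 252 and 233 at ZT12, 297 and 328 at ZT16 and 399 and 388 at ZT20. In both genotypes every library at ZT8 and ZT12 was below every library at the other 4 times. For Calr the fitted peak-to-trough was 0.94 ± 0.07 in WT and 0.87 ± 0.07 in KO on the log2 scale (SE, n = 12 libraries each), with limma adjusted p-values of 1.09e-07 and 4.12e-06. Peak times were ZT22.6 ± 0.29 h in WT and ZT22.3 ± 0.32 h in KO, and the KO minus WT peak-to-trough difference was -0.08 (95% interval -0.29 to 0.14). Of the summed Calr value, 29.1% was assigned to Calr-204, a transcript with a retained intron, and 70.0% to the coding Calr-201.

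Canx (calnexin, the membrane-bound one; ENSMUSG00000020368, chr11:50293961-50325673, minus strand) varied less. In WT kidney, Canx read 178 and 162 TPM at ZT0, 156 and 139.6 at ZT4, 139 and 137 at ZT8, 126 and 128 at ZT12, 151 and 150.1 at ZT16 and 172 and 171 at ZT20. Readings of Canx in KO were 174 and 163 TPM at ZT0, 163 and 153 at ZT4, 126 and 128 at ZT8, 152 and 134 at ZT12, 144 and 156 at ZT16 and 164 and 169 at ZT20. The WT libraries at ZT8 and ZT12 were all lower than the rest, while in KO library A at ZT12 read within the range of the later times. Canx had a fitted peak-to-trough of 0.42 ± 0.07 in WT and 0.36 ± 0.07 in KO on the log2 scale (SE, n = 12 libraries each), with limma adjusted p-values of 0.00102 and 0.0131. The difference between genotypes was -0.06 (95% interval -0.26 to 0.14).

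All 4 HSP70 and HSP90 genes were rhythmic in WT, and 3 of them in KO. Hspa5 encodes BiP, the main ER HSP70 and the protein that holds the sensors inactive (ENSMUSG00000026864, chr2:34771970-34777547, plus strand). Hspa5 read 286 and 203 TPM at ZT0, 178 and 154 at ZT4, 94.9 and 99.0 at ZT8, 104 and 110.4 at ZT12, 309 and 298 at ZT16 and 239.7 and 254 at ZT20 in WT. In KO kidney, Hspa5 read 254 and 202 TPM at ZT0, 162 and 136 at ZT4, 116 and 114 at ZT8, 187 and 149 at ZT12, 251 and 292 at ZT16 and 188 and 318 at ZT20. Both WT libraries at ZT16 lay above every other WT library, after a low at ZT8 and ZT12, whereas in KO the ZT12 libraries already lay above both ZT8 libraries. The fitted peak-to-trough of Hspa5 was 1.59 ± 0.23 in WT and 1.19 ± 0.23 in KO on the log2 scale (SE, n = 12 libraries each), with limma adjusted p-values of 0.000483 and 0.0175. Fitted peaks fell at ZT20.4 ± 0.56 h in WT and ZT19.2 ± 0.75 h in KO, and the difference in peak-to-trough was -0.40 (95% interval -1.08 to 0.28).

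Hsp90b1 encodes GRP94, the ER HSP90 (ENSMUSG00000020048, chr10:86690209-86705509, minus strand). In WT kidney, Hsp90b1 read 299 and 249 TPM at ZT0, 219 and 178 at ZT4, 152 and 133 at ZT8, 154 and 119 at ZT12, 232 and 256 at ZT16 and 253 and 277 at ZT20. For Hsp90b1, the KO libraries read 279.8 and 253 TPM at ZT0, 210.2 and 182 at ZT4, 118 and 156 at ZT8, 209 and 171 at ZT12, 214 and 265 at ZT16 and 269.7 and 291 at ZT20. The WT low was shared by ZT8 and ZT12, and in KO the ZT12 libraries were above the ZT8 libraries. For Hsp90b1 the fitted peak-to-trough was 1.11 ± 0.15 in WT and 0.96 ± 0.15 in KO on the log2 scale (SE, n = 12 libraries each), with limma adjusted p-values of 0.000186 and 0.00342. The genotype difference was -0.15 (95% interval -0.59 to 0.28).

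Hyou1, a large HSP70-like exchange factor for BiP, had a peak-to-trough of 1.30 ± 0.19 in WT and 1.01 ± 0.19 in KO (limma adjusted p 0.000452 and 0.0136). For Hspa13, a microsomal HSP70 relative, it was 0.25 ± 0.07 in WT and 0.23 ± 0.07 in KO, and only the WT rhythm passed (limma adjusted p 0.0479 and 0.114). The 2 Hspa13 estimates lie within an SE of each other.

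**Figure D2:**
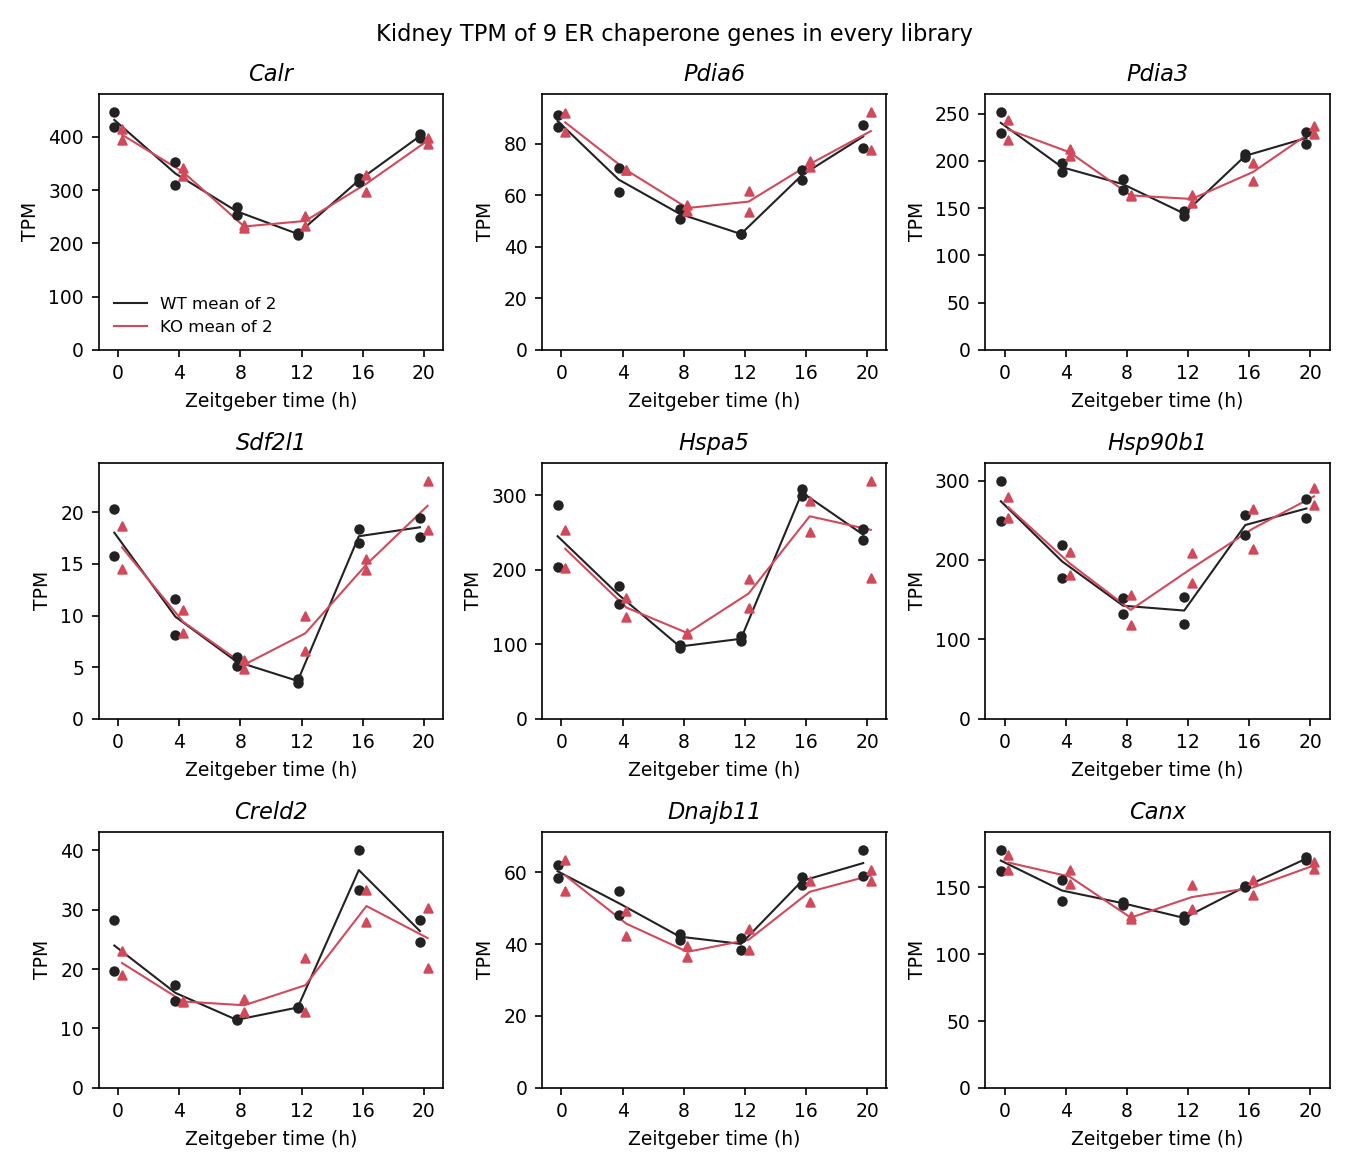
TPM of 9 chaperone genes against zeitgeber time; points are single libraries (WT circles, KO triangles, 2 per time) and lines join the means. All 9 genes are lowest at ZT8 or ZT12 in both genotypes and highest between ZT16 and ZT0, and Sdf2l1 and Hspa5 have the steepest step from ZT12 to ZT16 in WT.

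Among the 6 genes for disulfide isomerases and their oxidase, which make and rearrange disulfide bonds, Pdia3, Pdia4 and Pdia6 were rhythmic in both genotypes. Pdia6 (ENSMUSG00000020571, chr12:17266545-17284770, plus strand) had the second smallest KO p-value. Pdia6 read 91.1 and 86.7 TPM at ZT0, 70.7 and 61.4 at ZT4, 54.6 and 51.0 at ZT8, 44.9 and 45.1 at ZT12, 69.7 and 66.0 at ZT16 and 78.3 and 87.4 at ZT20 in WT. Readings of Pdia6 in KO were 92.0 and 84.6 TPM at ZT0, 69.7 and 69.9 at ZT4, 56.1 and 54.0 at ZT8, 61.5 and 53.6 at ZT12, 71.0 and 73.2 at ZT16 and 92.2 and 77.7 at ZT20. All ZT8 and ZT12 libraries were below all others in both genotypes, and the KO lows were higher than the WT low at ZT12. At ZT12 both KO libraries lay above both WT libraries for 57.3% of all genes. Pdia6 had a fitted peak-to-trough of 0.94 ± 0.08 in WT and 0.72 ± 0.08 in KO on the log2 scale (SE, n = 12 libraries each), with limma adjusted p-values of 9.31e-07 and 0.000324. The difference was -0.23 (95% interval -0.47 to 0.01), an interval whose upper limit is the lowest among the 13 genes rhythmic in both.

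Pdia3 (ERp57, the isomerase that works with calreticulin and calnexin; ENSMUSG00000027248, chr2:121413775-121438687, plus strand) had nearly equal estimates. In WT kidney, Pdia3 read 251 and 229 TPM at ZT0, 198 and 189 at ZT4, 181 and 169 at ZT8, 147 and 141 at ZT12, 204 and 207 at ZT16 and 218 and 231 at ZT20. In KO kidney, Pdia3 read 244 and 222 TPM at ZT0, 213 and 205 at ZT4, 164 and 163 at ZT8, 164 and 156 at ZT12, 178 and 198 at ZT16 and 237 and 228 at ZT20. Here too the ZT8 and ZT12 libraries of each genotype were the lowest. The fitted peak-to-trough of Pdia3 was 0.63 ± 0.08 in WT and 0.62 ± 0.08 in KO on the log2 scale (SE, n = 12 libraries each), with limma adjusted p-values of 7.38e-05 and 0.000703. Peaks were at ZT22.4 ± 0.47 h in WT and ZT22.7 ± 0.48 h in KO, and the difference in peak-to-trough was -0.01 (95% interval -0.24 to 0.21).

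Pdia4 (ERp72) had 0.77 ± 0.12 in WT and 0.62 ± 0.12 in KO log2 units (limma adjusted p 0.000773 and 0.0149). P4hb, the classical protein disulfide isomerase and the member with the highest level, had 0.21 ± 0.07 in WT and 0.27 ± 0.07 in KO and passed in neither (limma adjusted p 0.106 and 0.0674). Pdia5 had 0.39 ± 0.15 in WT and 0.36 ± 0.15 in KO and also passed in neither (limma adjusted p 0.183 and 0.302). Ero1l, the oxidase that recharges the isomerases, had 0.14 ± 0.12 in WT and 0.09 ± 0.12 in KO (limma adjusted p 0.688 and 0.877). The abundant P4hb and the less abundant Pdia5 and Ero1l thus did not pass where 3 other genes of the group did.

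All 3 soluble ER stress proteins were rhythmic in WT, and 2 of them in KO. Sdf2l1, a partner of the ER HSP40 proteins (ENSMUSG00000022769, chr16:17130138-17132383, minus strand), had the largest fitted peak-to-trough of the 39 genes in both genotypes. Sdf2l1 read 20.3 and 15.8 TPM at ZT0, 11.6 and 8.16 at ZT4, 5.97 and 5.12 at ZT8, 3.87 and 3.48 at ZT12, 18.3 and 17.0 at ZT16 and 17.6 and 19.5 at ZT20 in WT. For Sdf2l1, the KO libraries read 18.7 and 14.5 TPM at ZT0, 10.5 and 8.30 at ZT4, 5.66 and 4.83 at ZT8, 9.99 and 6.59 at ZT12, 14.4 and 15.5 at ZT16 and 23.0 and 18.3 at ZT20. In WT the ZT16 libraries lay far above the ZT12 libraries, at a ratio of means of 4.82, while in KO the ZT12 libraries lay between those of ZT8 and ZT16. For Sdf2l1 the fitted peak-to-trough was 2.33 ± 0.28 in WT and 1.87 ± 0.28 in KO on the log2 scale (SE, n = 12 libraries each), with limma adjusted p-values of 6.36e-05 and 0.0028. This corresponds to a fitted 5.04-fold range in WT and 3.66-fold in KO, with a difference of -0.46 (95% interval -1.27 to 0.35) log2 units.

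Creld2, a secreted protein with disulfide isomerase activity, had 1.48 ± 0.24 in WT and 1.10 ± 0.24 in KO (limma adjusted p 0.00126 and 0.0316). Manf, a secreted factor released under ER stress, had 1.56 ± 0.26 in WT and 1.08 ± 0.26 in KO, and its KO rhythm missed the threshold (limma adjusted p 0.00165 and 0.0525). The Manf difference was -0.48 (95% interval -1.25 to 0.29), so a KO rhythm as large as that of WT lies within the interval. In WT, Manf peaked at ZT19.9 and Creld2 at ZT19.4.

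HSP40 cochaperones hand clients to BiP and start its ATPase cycle. Of the 4 genes measured, Dnajb11 and Dnajc3 were rhythmic in both genotypes. Dnajb11 (ERdj3; ENSMUSG00000004460, chr16:22857845-22879634, plus strand) had estimates that differed little. In WT kidney, Dnajb11 read 62.0 and 58.4 TPM at ZT0, 54.7 and 48.0 at ZT4, 42.9 and 41.2 at ZT8, 38.4 and 41.6 at ZT12, 56.4 and 58.7 at ZT16 and 59.0 and 66.0 at ZT20. Readings of Dnajb11 in KO were 63.5 and 54.6 TPM at ZT0, 49.1 and 42.2 at ZT4, 39.4 and 36.3 at ZT8, 44.0 and 38.3 at ZT12, 57.5 and 51.6 at ZT16 and 57.6 and 60.5 at ZT20. The lowest means were those of ZT8 and ZT12 in both genotypes. Dnajb11 had a fitted peak-to-trough of 0.68 ± 0.09 in WT and 0.70 ± 0.09 in KO on the log2 scale (SE, n = 12 libraries each), with limma adjusted p-values of 0.000137 and 0.000703. It was the 1 gene among the 13 with a larger fitted rhythm in KO, by 0.03 (95% interval -0.23 to 0.28).

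Dnajc3 (P58IPK, which also restrains PERK; ENSMUSG00000022136, chr14:118937976-118981697, plus strand) was lowest at ZT12 in WT and at ZT8 in KO. Dnajc3 read 43.3 and 38.8 TPM at ZT0, 36.7 and 31.1 at ZT4, 30.2 and 28.9 at ZT8, 27.7 and 25.9 at ZT12, 36.2 and 35.9 at ZT16 and 39.3 and 41.0 at ZT20 in WT. In KO kidney, Dnajc3 read 42.7 and 39.6 TPM at ZT0, 36.0 and 37.7 at ZT4, 28.6 and 30.9 at ZT8, 36.0 and 32.2 at ZT12, 36.0 and 36.9 at ZT16 and 42.9 and 41.7 at ZT20. The fitted peak-to-trough of Dnajc3 was 0.61 ± 0.08 in WT and 0.45 ± 0.08 in KO on the log2 scale (SE, n = 12 libraries each), with limma adjusted p-values of 9.94e-05 and 0.00735. The KO libraries at ZT12 were above both WT libraries of that time, as they were for 57.3% of all genes. The difference in peak-to-trough was -0.15 (95% interval -0.38 to 0.07). Dnajb9 (ERdj4), at 0.39 ± 0.18 in WT and 0.26 ± 0.18 in KO, and Dnajc10 (ERdj5, a reductase), at 0.18 ± 0.09 in WT and 0.04 ± 0.09 in KO, passed in neither genotype (limma adjusted p 0.295 and 0.629 for Dnajb9, 0.369 and 0.969 for Dnajc10).

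**Figure D3:**
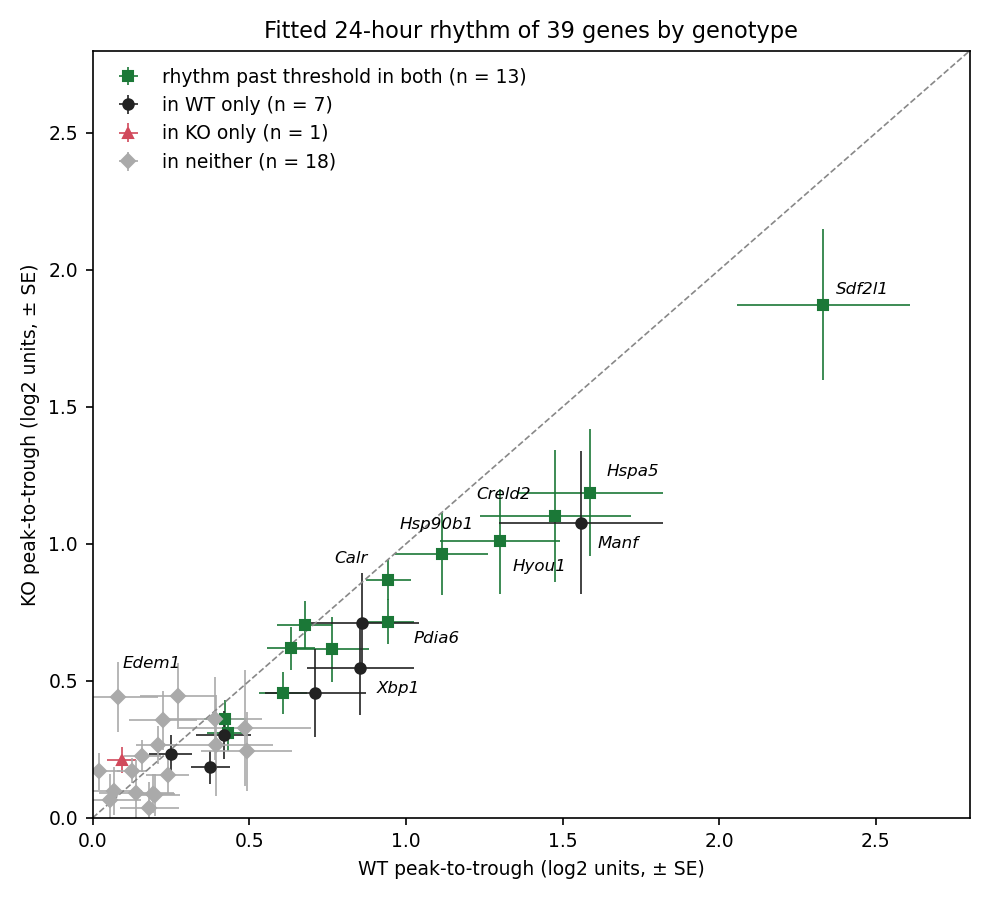
Fitted peak-to-trough of the 39 tested genes in KO (vertical axis) against WT (horizontal axis), in log2 units with SE bars; the dashed line marks equality. Most genes with a large WT rhythm lie below the line and close to it, from Calr at 0.94 and 0.87 to Sdf2l1 at 2.33 and 1.87.

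ER-associated degradation draws misfolded proteins out of the ER for the proteasome. Of its 7 tested members, 3 were rhythmic in WT and 1 in KO. Herpud1, a ubiquitin-like scaffold of the retrotranslocation complex, peaked some hours apart from the chaperones, at ZT13.7 ± 0.81 h in WT and ZT12.3 ± 0.97 h in KO. In WT kidney, Herpud1 read 125 and 101 TPM at ZT0, 89.2 and 105 at ZT4, 142 and 155 at ZT8, 206 and 147 at ZT12, 179 and 170.2 at ZT16 and 131 and 125 at ZT20. For Herpud1, the KO libraries read 95.7 and 83.6 TPM at ZT0, 98.6 and 79.8 at ZT4, 107 and 131 at ZT8, 166 and 112 at ZT12, 93.6 and 169 at ZT16 and 83.0 and 96.0 at ZT20. The WT means were highest at ZT12 and ZT16, and at ZT12 the chaperone means were at or near their lowest. For Herpud1 the fitted peak-to-trough was 0.86 ± 0.18 in WT and 0.71 ± 0.18 in KO on the log2 scale (SE, n = 12 libraries each), with limma adjusted p-values of 0.00925 and 0.0636. Only the WT rhythm passed, and the difference was -0.15 (95% interval -0.68 to 0.39).

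Syvn1 (HRD1, the ubiquitin ligase of the pathway) had 0.71 ± 0.16 in WT and 0.46 ± 0.16 in KO (limma adjusted p 0.014 and 0.189). Derl2, a channel component, had 0.42 ± 0.09 in WT and 0.30 ± 0.09 in KO (limma adjusted p 0.00797 and 0.101). Both passed in WT and not in KO. Derl1, the related channel gene, passed in KO and not in WT, at 0.09 ± 0.05 in WT and 0.21 ± 0.05 in KO (limma adjusted p 0.347 and 0.0317), with a difference of 0.12 (95% interval -0.02 to 0.26). Its KO call was lost in 3 of the 24 fits that left out 1 library and in the fit of the KO libraries alone (limma adjusted p = 0.294).

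Sel1l, the adaptor of HRD1, had 0.49 ± 0.14 in WT and 0.24 ± 0.14 in KO (limma adjusted p 0.0617 and 0.535). Edem1 and Edem2, lectins that mark glycoproteins for degradation, passed in neither genotype. Edem2 had 0.02 ± 0.07 in WT and 0.17 ± 0.07 in KO (limma adjusted p 0.977 and 0.268), and Edem1 had 0.08 ± 0.13 in WT and 0.44 ± 0.13 in KO (limma adjusted p 0.889 and 0.104).

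None of the 3 sensor genes passed in either genotype, while Xbp1, the factor downstream of IRE1α, passed in WT. Xbp1 read 78.4 and 74.1 TPM at ZT0, 47.2 and 53.4 at ZT4, 61.7 and 47.6 at ZT8, 41.7 and 48.0 at ZT12, 88.3 and 83.3 at ZT16 and 75.1 and 79.4 at ZT20 in WT. Readings of Xbp1 in KO were 59.0 and 59.2 TPM at ZT0, 44.5 and 52.7 at ZT4, 46.9 and 47.1 at ZT8, 65.5 and 47.9 at ZT12, 70.1 and 74.3 at ZT16 and 50.4 and 73.7 at ZT20. The 4 WT libraries at ZT16 and ZT20 and the 2 at ZT0 were above the 6 at ZT4, ZT8 and ZT12, while in KO 1 library at ZT20 read between those of ZT4. Xbp1 had a fitted peak-to-trough of 0.85 ± 0.17 in WT and 0.55 ± 0.17 in KO on the log2 scale (SE, n = 12 libraries each), with limma adjusted p-values of 0.00621 and 0.135. The difference was -0.31 (95% interval -0.81 to 0.20). No annotated Xbp1 transcript has an intron as short as the one that IRE1α removes, the shortest being 300 bases, so the spliced form cannot be told from the unspliced one in these values.

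For Ern1 the values were low and flat. In WT kidney, Ern1 read 3.72 and 4.23 TPM at ZT0, 4.19 and 4.01 at ZT4, 4.15 and 4.43 at ZT8, 3.95 and 4.01 at ZT12, 3.81 and 4.14 at ZT16 and 4.24 and 4.03 at ZT20. In KO kidney, Ern1 read 4.45 and 4.75 TPM at ZT0, 4.22 and 5.01 at ZT4, 3.98 and 4.46 at ZT8, 5.69 and 4.23 at ZT12, 4.56 and 4.58 at ZT16 and 4.56 and 4.58 at ZT20. The fitted peak-to-trough of Ern1 was 0.06 ± 0.10 in WT and 0.06 ± 0.10 in KO on the log2 scale (SE, n = 12 libraries each), with limma adjusted p-values of 0.908 and 0.906. The highest reading was KO library A at ZT12, and the remaining libraries differed little with time.

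Atf6 was similar. Atf6 read 7.43 and 6.79 TPM at ZT0, 7.02 and 6.98 at ZT4, 6.91 and 7.64 at ZT8, 7.09 and 7.20 at ZT12, 7.35 and 7.67 at ZT16 and 7.40 and 7.08 at ZT20 in WT. For Atf6, the KO libraries read 8.78 and 8.24 TPM at ZT0, 7.01 and 8.34 at ZT4, 6.90 and 7.64 at ZT8, 9.48 and 7.86 at ZT12, 7.98 and 8.28 at ZT16 and 7.48 and 7.88 at ZT20. For Atf6 the fitted peak-to-trough was 0.07 ± 0.09 in WT and 0.10 ± 0.09 in KO on the log2 scale (SE, n = 12 libraries each), with limma adjusted p-values of 0.848 and 0.762. Again KO library A at ZT12 was the highest. That library read above its partner B in 34 of the 39 members, with a median gap of 0.16 log2 units, where the median over all genes was 0.08. Without it, 21 members passed in WT, 15 in KO and 13 in both, where 2082, 474 and 254 of all 12853 genes did.

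Eif2ak3, the gene for PERK, read higher in both KO libraries than in both WT libraries at ZT8, ZT12 and ZT16. The same held for 43.4%, 57.3% and 49.9% of all genes at these times, so it is not particular to this gene. In WT kidney, Eif2ak3 read 9.56 and 9.33 TPM at ZT0, 8.28 and 8.46 at ZT4, 8.02 and 7.99 at ZT8, 6.91 and 8.95 at ZT12, 8.60 and 9.11 at ZT16 and 10.4 and 8.28 at ZT20. Readings of Eif2ak3 in KO were 11.4 and 9.47 TPM at ZT0, 8.18 and 9.37 at ZT4, 8.30 and 9.55 at ZT8, 13.1 and 10.5 at ZT12, 11.1 and 13.6 at ZT16 and 9.39 and 10.9 at ZT20. Eif2ak3 had a fitted peak-to-trough of 0.27 ± 0.12 in WT and 0.45 ± 0.12 in KO on the log2 scale (SE, n = 12 libraries each), with limma adjusted p-values of 0.264 and 0.0838. Neither rhythm passed, but with median-of-ratios scaling the KO rhythm did (limma adjusted p = 0.0445). The fitted peaks were ZT21.5 ± 1.70 h in WT and ZT16.0 ± 1.04 h in KO, and the test of the difference in rhythm gave a limma adjusted p of 0.319.

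**Figure D4:**
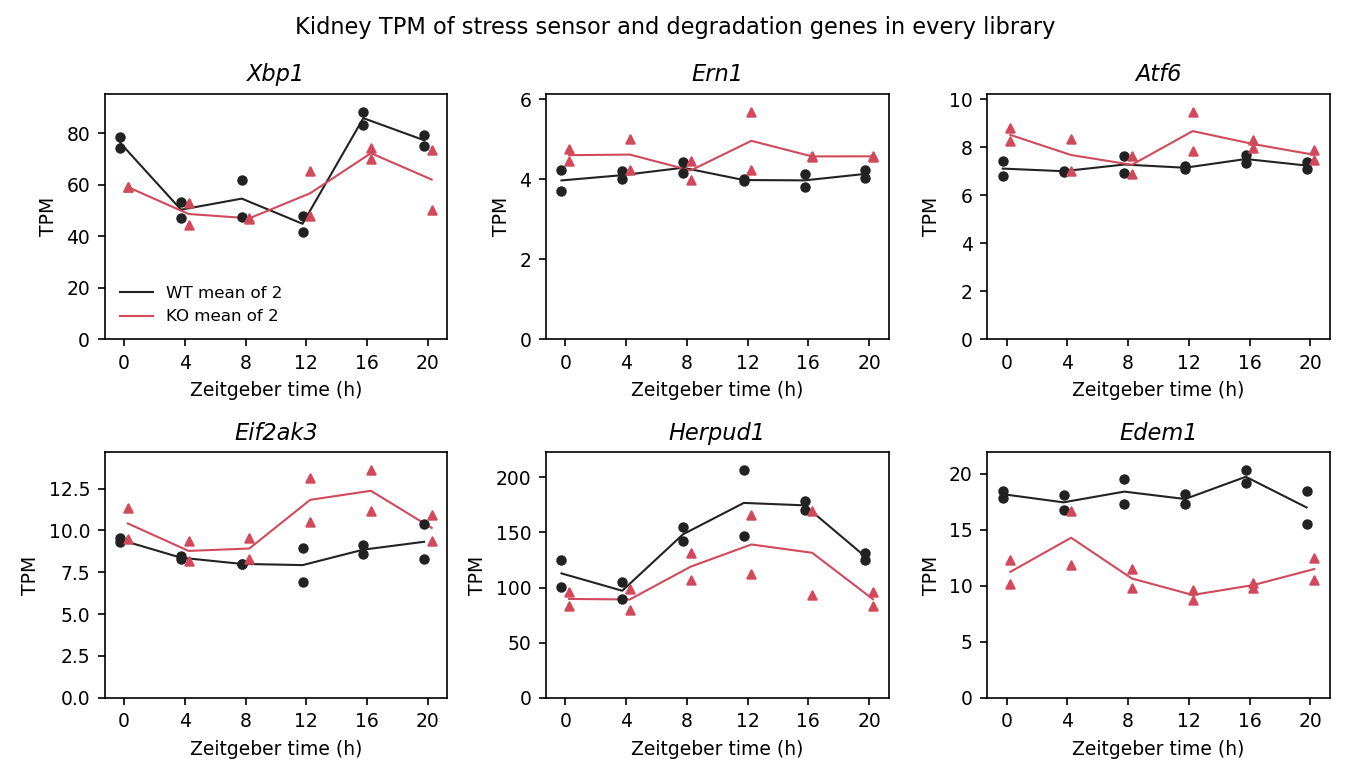
TPM of Xbp1, the sensor genes Ern1, Atf6 and Eif2ak3, and the degradation genes Herpud1 and Edem1 against zeitgeber time; points are single libraries (WT circles, KO triangles) and lines join the means of 2. Ern1 and Atf6 stay within narrow ranges, and Edem1 is lower in KO at each time, with library A at ZT4 the KO library nearest to WT.

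The translocon moves nascent chains into the ER, and signal peptidase cuts their leader. Of these 7 genes, Sec61b and Spcs2 were rhythmic in WT and Sec61b in KO. Sec61b, a small translocon subunit, had 0.43 ± 0.07 in WT and 0.31 ± 0.07 in KO (limma adjusted p 0.000743 and 0.027) and peaked at ZT22.3 ± 0.59 h in WT and ZT1.21 ± 0.82 h in KO. Its peak was 2.94 h later in KO (95% interval 0.851 to 5.04 h), although the test of the difference in rhythm did not pass (limma adjusted p = 0.249). Spcs2, a signal peptidase subunit, had 0.38 ± 0.06 in WT and 0.18 ± 0.06 in KO (limma adjusted p 0.00121 and 0.163), with a difference of -0.19 (95% interval -0.37 to -0.01). That interval is not adjusted for the number of genes, and the test of the difference in rhythm did not pass for Spcs2 (limma adjusted p = 0.483).

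Sec61a1, the pore subunit, had 0.24 ± 0.07 in WT and 0.16 ± 0.07 in KO and lay just outside the threshold in WT (limma adjusted p 0.052 and 0.32). Sec61g had 0.49 ± 0.21 in WT and 0.33 ± 0.21 in KO (limma adjusted p 0.249 and 0.587), but its mean of 2.43 TPM is split over near-identical transcripts and is uncertain. The translocon-associated genes Ssr1, at 0.16 ± 0.06 in WT and 0.23 ± 0.06 in KO, and Ssr3, at 0.12 ± 0.05 in WT and 0.17 ± 0.05 in KO, passed in neither (limma adjusted p 0.159 and 0.067 for Ssr1, 0.15 and 0.074 for Ssr3). Sec11c, a catalytic signal peptidase subunit, had 0.23 ± 0.11 in WT and 0.36 ± 0.11 in KO and passed in neither (limma adjusted p 0.314 and 0.12).

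The prolyl isomerases Ppib (cyclophilin B), at 0.19 ± 0.07 in WT and 0.09 ± 0.07 in KO, and Fkbp2, at 0.20 ± 0.08 in WT and 0.08 ± 0.08 in KO, did not pass in either genotype (limma adjusted p 0.161 and 0.717 for Ppib, 0.179 and 0.77 for Fkbp2).

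Peak times lay close together. Over the 13 genes rhythmic in both genotypes, fitted WT peaks ran from ZT19.4 (Creld2) to ZT22.6 (Calr). In KO, 12 of the 13 peaked between ZT18.5 and ZT22.7, and Sec61b at ZT1.21. The KO peak was earlier than the WT peak in 11 of the 13, with a median shift of -0.55 h, and in 25 of the 39 tested members (64.1%), with a median of -0.51 h, where 51.5% of all genes were earlier, with a median of -0.20 h. Without library KO ZT4 A it was earlier in 23 of the 39 members and in 6122 of all 12872 genes. For the 13, the 95% intervals of the single shifts included 0 for 12 genes, all but Sec61b. The fitted KO rhythm was between 71.7% and 104% of the WT one, and it was the smaller in 12 of the 13; without library KO ZT4 A, 11 of the same 13 were earlier and 12 smaller. These 13 were chosen for passing in KO as well, which leaves out low KO values. Over the 20 members rhythmic in WT the KO rhythm was 49.0% to 104% of the WT one and the smaller in 19, and those 20 were chosen for a high WT value.

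Over all 39 tested members the KO peak-to-trough was the smaller in 28, or 71.8%, where 58.5% of all genes had the smaller value in KO, and in 30 without library KO ZT4 A. The members' median peak-to-trough was 0.42 log2 units in WT and 0.36 in KO, beside 0.25 and 0.21 over all genes tested. The summed level of the 40 genes was 3179 ± 213 TPM at ZT0 and 2227 ± 42.0 TPM at ZT12 in WT (mean ± SD, n = 2). In KO the sum was 3008 ± 190 TPM at ZT20 and 2298 ± 69.7 TPM at ZT8.

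**Figure D5:**
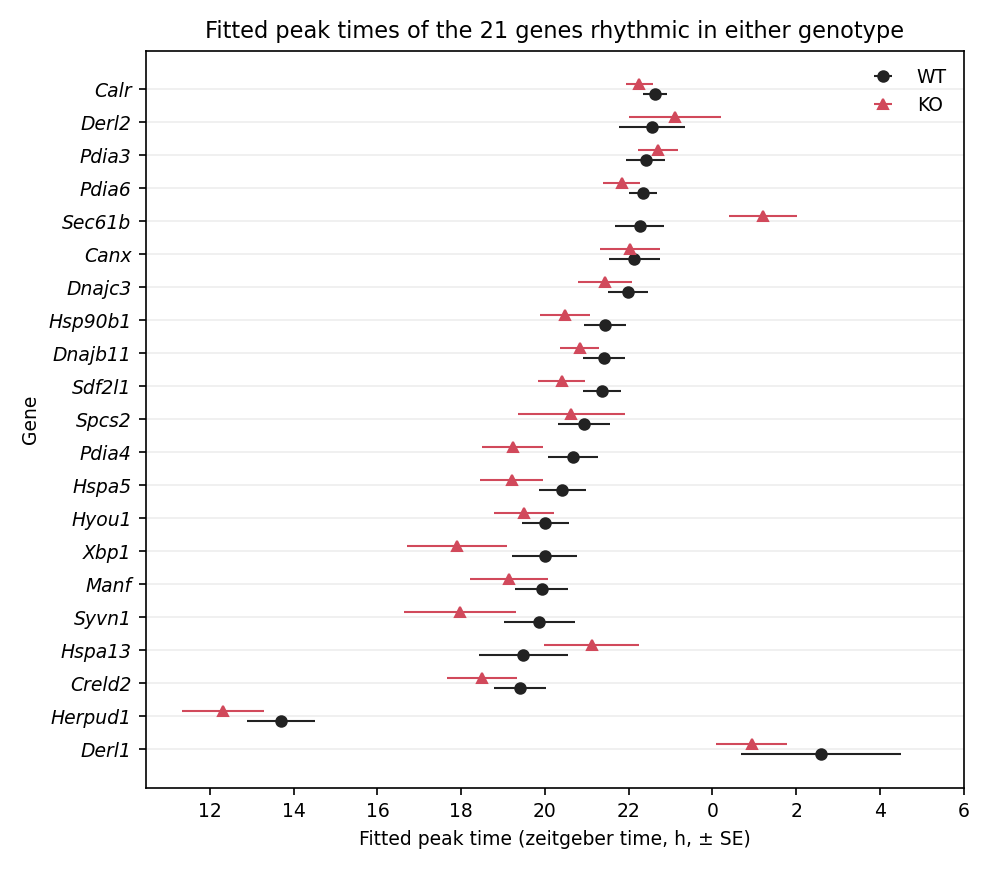
Fitted peak times of the 21 genes rhythmic in either genotype, with SE bars; WT circles and KO triangles, on an axis in zeitgeber hours that runs past midnight. Most peaks lie between ZT18 and ZT23, Herpud1 stands apart at ZT13.7 in WT and ZT12.3 in KO, and the KO peak is earlier in most rows.

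The step from ZT12 to ZT16 was compared by whether libraries overlapped. In WT, both ZT16 libraries were above both ZT12 libraries for 28 of 39 members, against 31.0% of all genes, and in KO for 20 of 39, against 10.5%. The median ratio of ZT16 to ZT12 was 1.22 in WT and 1.08 in KO over the members, and 1.03 and 0.978 over all genes. The 4 libraries at ZT8 and ZT12 lay below all 8 others for 20 members in WT and 4 in KO, against 3.80% and 0.388% of all genes. The 4 in KO were Calr, Pdia3, Pdia6 and Derl2, and without library KO ZT4 A they were the same 4.

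At single times the genotypes were compared in the same way. At ZT12 both KO libraries were above both WT libraries for 22 of 39 members, 56.4%, which is near the 57.3% of all genes. At ZT16 both KO libraries were below both WT libraries for 20 members, 51.3%, among them Hspa5, Hyou1, Creld2, Manf, Sdf2l1 and Xbp1, where the background was 14.6%. The share of members below was over the background at other times too: 30.8% against 13.4% at ZT0, 12.8% against 5.72% at ZT4, 28.2% against 17.1% at ZT8 and 20.5% against 15.2% at ZT20. At ZT12 it was 12.8% against 13.0%. The share above was under the background at every time but ZT12, where it was near it. No test of single times was made.

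Levels averaged over the day were compared with time as a 6-level factor. Of 39 members, 9 were higher in KO and 5 lower at an adjusted p under 0.05 (limma), where 50.9% of all genes were higher and 10.0% lower. With library KO ZT4 A left out, 7 were higher and 5 lower. TPM values were shifted as a whole: the median KO minus WT difference over all genes was 0.15 log2 units, and 0.01 over the members. With median-of-ratios scaling that median was -0.0019, and 1 member was higher and 19 lower, against 21.5% and 22.6% of all genes. The direction of the smaller level differences therefore rests on the scaling. Some cell type markers also moved with genotype: the summed podocyte markers (3 of 3 detected) read 50.1 to 70.9 TPM in WT and 68.3 to 99.4 TPM in KO, those of intercalated cells (3 of 3) 26.6 to 44.9 and 38.9 to 64.3 TPM, and those of principal cells (3 of 3) 135 to 251 and 178 to 448 TPM. Leukocyte markers (4 of 4) went the other way, at 145 to 306 TPM in WT and 107 to 196 TPM in KO, and the plasma cell maximum was lower in KO. Proximal tubule markers read 1965 to 2358 and 1994 to 2631 TPM. All these ranges overlap between genotypes and were not corrected for the shift of TPM as a whole. Podocyte and intercalated cell markers were highest in KO ZT12 A. The part of these cell types in the level differences was not tested.

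The 6 genes past the threshold that lay farthest from the all-gene median kept their direction and their call under both scalings, but not their size: with median-of-ratios scaling the differences were -0.86 for Edem1, -0.51 for Herpud1, -0.45 for Derl2, -0.33 for P4hb, -0.23 for Derl1 and 0.11 for Ppib. The values that follow are on TPM. Edem1, at 18.1 ± 1.28 TPM in WT and 11.1 ± 2.10 TPM in KO (mean ± SD over 12 libraries each), differed by -0.71 ± 0.07 log2 units (SE; limma adjusted p = 4.85e-07). Its WT libraries ran from 15.5 to 20.3 TPM, and 11 KO libraries from 8.70 to 12.5 TPM, while the library labelled KO ZT4 A read 16.7 TPM, inside the WT range. Without that library the difference was -0.76. Herpud1, at 139.6 ± 34.4 TPM in WT and 109.6 ± 30.5 TPM in KO (mean ± SD over 12 libraries each), differed by -0.35 ± 0.09 log2 units (SE; limma adjusted p = 0.00261). Derl2, at 26.9 ± 3.23 TPM in WT and 21.8 ± 2.33 TPM in KO (mean ± SD over 12 libraries each), differed by -0.30 ± 0.04 log2 units (SE; limma adjusted p = 2.46e-06).

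P4hb, at 409 ± 26.6 TPM in WT and 363 ± 32.6 TPM in KO (mean ± SD over 12 libraries each), differed by -0.17 ± 0.04 log2 units (SE; limma adjusted p = 0.000868). Derl1, at 34.1 ± 1.15 TPM in WT and 32.3 ± 1.97 TPM in KO (mean ± SD over 12 libraries each), differed by -0.08 ± 0.03 log2 units (SE; limma adjusted p = 0.0102). Ppib, at 162 ± 9.40 TPM in WT and 194 ± 13.6 TPM in KO (mean ± SD over 12 libraries each), was the 1 of the 6 that was higher in KO, by 0.26 ± 0.04 log2 units (SE; limma adjusted p = 1.76e-05). Of these, 4 degradation genes and 1 disulfide isomerase gene were thus lower in KO. The other members higher in KO on TPM were Atf6, Dnajc10, Dnajc3, Eif2ak3, Ern1, Ero1l, Pdia4 and Pdia6, with differences of 0.10 to 0.25; relative to the all-gene median these were -0.05 to 0.11, and none passed with median-of-ratios scaling.

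Promoter matches and rhythms can be set side by side. Of the 9 genes with an ERSE match, 8 were tested; all 8 were rhythmic in WT and 7 in KO, the exception being Syvn1. Of the 24 genes without an ERSE match in the window, all tested, 9 were rhythmic in WT and 5 in KO. These 24 include Dnajb11 and Herpud1, which have the ERSE-II there; both were rhythmic in WT and Dnajb11 also in KO. A match below means the ERSE alone. Leaving out library KO ZT4 A, the rhythm passed in WT for 8 and in KO for 7 of the genes with a match, and for 9 and 7 of those without. The median peak-to-trough was 0.94 in WT and 0.79 in KO log2 units for the genes with a match, and 0.38 and 0.28 for those without. Sdf2l1, with the largest rhythm, has no ERSE match in this window. The members were chosen as known ER stress genes, so this is a description of the list.

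A further 119 genes of ER function in 9 lists, of which 112 were tested, gave smaller shares than the 40: 23 passed in WT (20.5%) and 8 in KO (7.14%), 5 of them in both. Without library KO ZT4 A, 25 passed in WT, 8 in KO and 5 in both. In the fit of the KO libraries alone 0 of the 112 passed (limma; 12 of all genes). The oligosaccharyltransferase, which adds glycans, had 6 of 11 genes rhythmic in WT and 2 in KO. Rpn1 had 0.25 ± 0.05 in WT and 0.32 ± 0.05 in KO (limma adjusted p 0.00779 and 0.00496), and Magt1 0.56 ± 0.08 and 0.46 ± 0.08 (limma adjusted p 0.000433 and 0.00962). Serp1, a translocon-associated stress protein, had the smallest KO p-value of the 112, at 0.41 ± 0.05 in WT and 0.35 ± 0.05 in KO (limma adjusted p 5.02e-05 and 0.00133).

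Among the 7 BiP cochaperones and exchange factors, 0 passed in WT and 2 in KO. Sil1, an exchange factor for BiP, had 0.06 ± 0.06 in WT and 0.30 ± 0.06 in KO (limma adjusted p 0.724 and 0.0166). Sec63 had 0.08 ± 0.05 and 0.22 ± 0.05 (limma adjusted p 0.511 and 0.0491). The difference in rhythm passed for neither (limma adjusted p 0.219 for Sil1 and 0.532 for Sec63).

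In the list of disulfide and prolyl isomerases 4 of 18 passed in WT and 1 in KO, the oxidase Ero1lb, at 0.39 ± 0.10 and 0.47 ± 0.10 (limma adjusted p 0.0256 and 0.0231). The PERK and ATF4 arm had 1 of 8 in WT and 1 in KO, Nfe2l2, at 0.11 ± 0.10 and 0.46 ± 0.10 (limma adjusted p 0.736 and 0.035). Of the 15 genes of ER exit and retrieval 3 passed in WT and 1 in KO, Sec13. No gene passed in KO among glycan trimming (3 of 11 in WT), other degradation genes (3 of 17 in WT) and other sensors and proteases (1 of 9 in WT).

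The genes outside the list whose log2 values followed the members' mean z-score most closely over the 24 libraries were Lman2 (Pearson r = 0.935), P4ha1 (0.916), Fkbp4 (0.904), Zfyve16 (0.886) and Stip1 (0.886). The libraries share genotype and time, so these are descriptions. Lman2 is a lectin of the secretory pathway and P4ha1 a collagen prolyl hydroxylase of the ER, while Fkbp4 and Stip1 are cytosolic HSP90 cochaperones. Fkbp4 had a peak-to-trough of 0.81 in WT and 0.58 in KO and was also among the 12 genes that passed in the KO libraries alone (limma adjusted p = 0.0175).

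Plasma cell markers were highest in WT ZT4 B, where the sum of the 40 genes was 2481 TPM, beside 2682 TPM in WT ZT4 A. Without WT ZT4 B, 21 members passed in WT, 14 in KO and 13 in both, where 1593, 424 and 188 of all 12862 genes did. In simulated data for these 12874 genes, a rhythm of 1 log2 unit was given to a part of them. It was recovered in 84.5% of those genes in WT and 80.5% in KO. Simulated differences, a rhythm of that size in 1 genotype and none in the other, were recovered in 70.0%. The simulation gave both genotypes the same spread per gene, while the gap between KO libraries was wider here. The rates for KO and for differences therefore need not hold in these data. The peak-to-trough differences estimated for the members, -0.48 to 0.36 log2 units, were smaller than the simulated size.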

How the data were processed

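The authors deposited TPM, a length-scaled share of transcripts, for each transcript for 24 kidney RNA libraries. The submitters' processing notes name kallisto 0.42.4 and the builds mm10 and GRCm38; the index is not given in the sources used here. TPM keeps no depth, so the depth is unknown and no counting interval was computed. Of 88198 transcripts, 86119 were summed to genes through GENCODE M21 by Ensembl identifier without version, and 2079 (1.35% to 2.24% of TPM) had no match. Mitochondrial genes took 38.0% to 42.5% of TPM in WT and 32.3% to 40.3% in KO.

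Genes averaging 1 TPM or more were analysed as log2(TPM + 0.1) with limma 3.58.1 (trend and robust options) in R 4.3.3. Fold changes on this scale understate changes of low genes. Each genotype had its own mean, cosine and sine of 24 h, with 1 spread per gene. Rhythm, the genotype difference in rhythm, and level (time as 6 levels) were tested with Benjamini-Hochberg adjustment over all 12874 genes at 0.05. Peak-to-trough values have delta-method errors and 95% intervals. The models were tested on simulated data. Promoters came from RefSeq (GRCm38.p6).

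The 40 genes, the lists of other genes and the tests were chosen with earlier results of these data known. The values in every library are given for the 8 members with the smallest KO p-values and for Xbp1 and the sensors, and those of Hspa5 and Herpud1 were added after they were seen. Named besides were the 6 members past the level threshold that lie farthest from the all-gene median, up to 2 genes per list that passed in KO, and the 5 most alike genes.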

Additional observations from a re-analysis of the deposited data

Results flagged for a closer look

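Sec13, a coat component of the vesicles that leave the ER and 1 of the 112 tested genes of the other ER lists, had a rhythm that differed between WT and KO by the test of the difference itself (limma adjusted p = 0.0437, over all genes tested). The fitted peak-to-trough was 0.38 ± 0.07 log2 units in WT and 0.33 ± 0.07 in KO (SE, n = 12 libraries each), a difference of -0.05 (95% interval -0.24 to 0.14). The fitted peak moved from ZT19.9 in WT to ZT1.35 in KO, 5.41 h later (95% interval 3.35 to 7.47 h). Without library KO ZT4 A, the adjusted p was 0.0178 (limma) and the shift 5.73 h. It was the single gene of the 151 tested members and list genes to pass. Over all genes 81 of 12874 passed (0.629%), so 1 of 151 is near the background share. Its cause was not tested. With 2 libraries per group, no library could be compared with its group by its distance from the others.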

How the results depend on the processing

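The counts of members with a rhythm kept within 1.5 times of their values under other pseudocounts, filters, scaling and variance options, with exceptions in KO and in both genotypes under 2 other models. With time as 6 separate levels, 18 members passed in WT, 5 in KO and 5 in both, where 576, 28 and 14 of all 12874 genes did. With each genotype fitted alone, 23 members passed in WT, 5 in KO and 5 in both. Over all 12874 genes, 2843, 12 and 11 passed there, beside 1761, 468 and 214 in the main fit. Each of these fits uses 12 libraries instead of 24, and the counts rose in WT and fell in KO. Leaving out 1 library gave 19 to 21 members in WT, 10 to 16 in KO, 10 to 14 in both, 11 to 14 with a level difference and 0 to 0 with a difference in rhythm. The lowest KO count, 10, came without KO ZT8 B, where 297 of 12872 genes passed in KO. The highest, 16, came without KO ZT4 A (481 of 12872 genes) and without KO ZT0 A (620 of 12862). With median-of-ratios scaling 20 members had a level difference, 1 higher and 19 lower in KO in place of 9 and 5. Without KO ZT12 A the level split was 6 higher and 8 lower in place of 9 and 5. Summing protein-coding transcripts only, a setting chosen after seeing the data, gave 21 members in WT, 17 in KO and 16 in both. Of all 11737 genes in that setting, 1932, 616 and 276 passed. No member's level difference changed direction in any setting among the 6 named.

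With the replicate letter as a block, 20 members passed in WT, 14 in KO, 13 in both, 0 for the difference in rhythm and 14 for level. No count of members changed, and 1842, 525 and 240 of all 12874 genes were rhythmic in WT, KO and both. The letters are not shown to pair the libraries. Deviations of same-letter WT and KO libraries of 1 time correlated between -0.089 and 0.150 (median -0.030), and 1 of 6 pairs was over 0.1. Over all 66 pairs of same-letter libraries the correlation ran from -0.323 to 0.338 (median 0.022), so some link between letters is not excluded.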
